A study of Mus musculus with 6 samples.

Results

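The insulin-like growth factor (IGF) system was followed through 9 member genes of the 33697 genes counted in the mouse gut: the ligands Igf1 and Igf2, the receptor Igf1r, and the binding protein genes Igfbp2, Igfbp3, Igfbp4, Igfbp5, Igfbp6 and Igfbp7. They are taken by name, and the rule uses no measured value, though the list was chosen with earlier results of these data known. IGF-I and IGF-II are small peptides related to insulin that drive growth and survival of cells through the receptor tyrosine kinase IGF1R. Most IGF outside cells is held by binding proteins, which lengthen its life, keep it from the receptor or bring it to it, and proteases such as PAPP-A set it free. In the gut wall the mesenchymal cells below the epithelium are a known source of IGF-I, and the hormone GLP-2 acts on them through its receptor.

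Live tdTomato+ lamina propria cells had been sorted from untreated, fed Flare-TSLP mice of the C57BL/6 strain, in which an IRES-tdTomato cassette behind the coding sequence of Tslp marks cells that use this cytokine gene. The methods describe young adult mice of both sexes, and all groups carry the same reporter allele, made by targeting embryonic stem cells. The 6 libraries were 2 of the proximal small intestine (proximal jejunum), 2 of the distal small intestine (distal ileum), 1 of the cecum and 1 of the large intestine, and the last 2 are called the large bowel here. In each library cells carried 3 of the 6 antibody hashtags, but no table pairs hashtags with mice, so that a library counts as 1 sample and p-values measure the spread between libraries. Hashtags 4 to 6 were those of the replicate 2 libraries, and all others carried hashtags 1 to 3.

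The libraries held 109675337 to 206827504 unique molecular identifiers (UMIs) on genes, and 11174 to 19073 cells each passed the filters, 93558 in all. The library pairs shared at most 118 cell barcodes, 0.609% or less of the smaller library. Cells were sorted into classes by marker genes that include no member, and the UMIs of a class were summed in each library. All levels are in CPM, with every class sum scaled to a total of 1000000 UMIs. The counting is of transcript 3′ ends, so levels are not divided by gene length. By this gate 70610 cells were fibroblast-like. Of these, 41079 were trophocyte-like (Ackr4, Grem1, the fibroblasts around crypts), 6940 were like subepithelial myofibroblasts (SEMF-like; Nrg1, Procr), 1172 were telocyte-like (Foxl1, Bmp7), 4257 were like universal fibroblasts (Pi16, Dpp4) and 17162 had no clear subset. Another 15517 cells were lymphatic endothelial (LEC-like; Prox1, Lyve1) and 1375 were blood endothelial (BEC-like; Plvap, Flt1). There were 855 pericyte-like and 971 smooth muscle-like cells, small numbers of glia-like and immune-like cells, and 2500 unassigned cells. Cells were not filtered by tdTomato transcript, so a class listed here is not thereby shown to use Tslp. The genes in parentheses are examples from longer lists, and some were on in a minority of the class. Ackr4 was on in 34.6% of trophocyte-like (Sfrp1 95.4%) and Procr in 33.6% of SEMF-like cells (Wnt4 84.3%). Foxl1 was on in 34.0% of telocyte-like (Sox6 92.3%) and Dpp4 in 15.8% of universal fibroblast-like cells (Sema3c 82.9%). A class sum entered with at least 20 cells, which left out the telocyte-like cells of distal replicate 1 and the BEC-like cells of the cecum. Fewer transcripts per cell and fewer expressing cells within a class cannot be told apart in such sums.

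**Figure D1:**
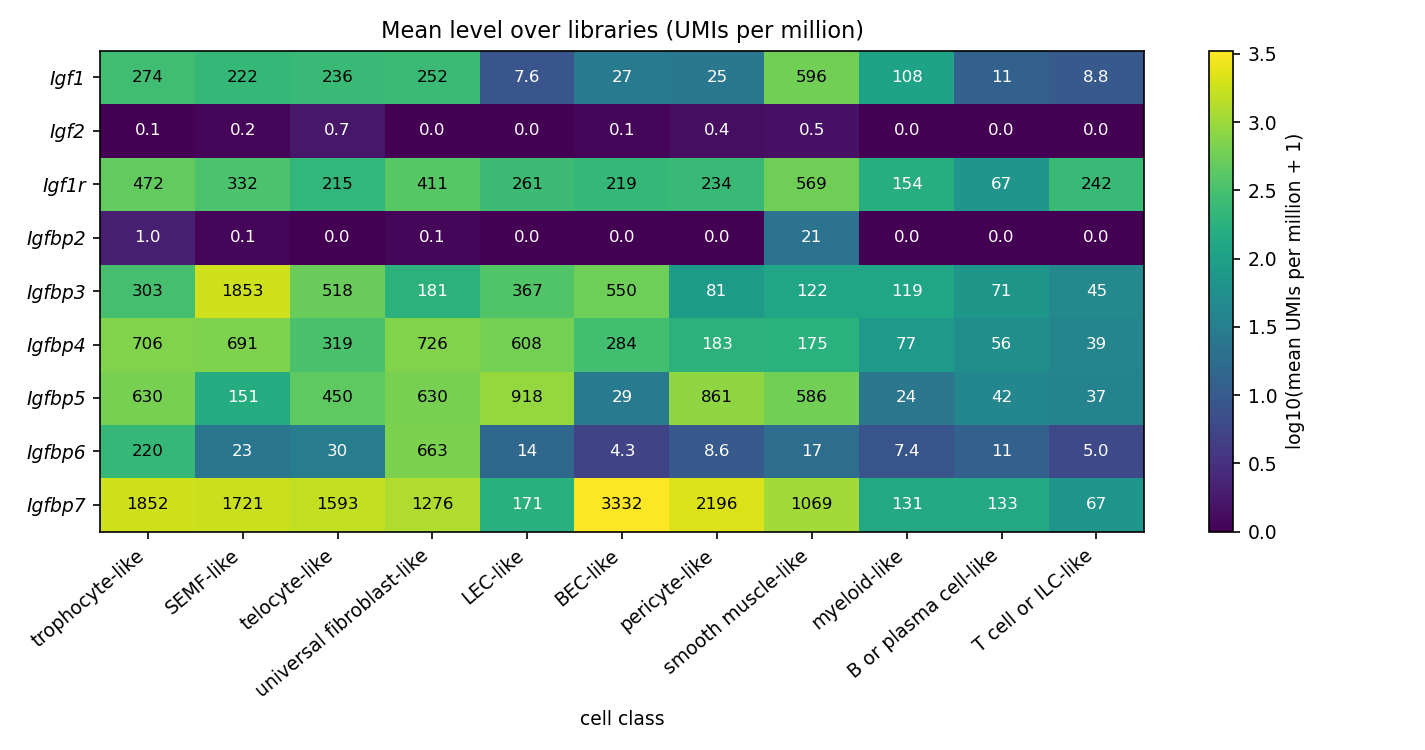
Mean level of each member gene in CPM (printed numbers; color on a log10 scale after adding 1) in 11 cell classes, over the 4 to 6 libraries in which the class had at least 20 cells. Igf1 reached 596 CPM in smooth muscle-like cells and 7.56 CPM in LEC-like cells, and Igfbp7 was highest in BEC-like cells.

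Of the ligands, only Igf1 was expressed at an appreciable level. The gene lies on chromosome 10 (87693642 to 87772904, plus strand, GRCm39), with the antisense gene Igf1os opposite. Igf1 had its highest mean in smooth muscle-like cells, at 623 and 557 CPM in the proximal replicates, 516.5 and 1052 CPM in the distal replicates, 531 CPM in the cecum and 298 CPM in the large intestine. In trophocyte-like cells the same libraries held 279.7, 315, 171, 232, 368 and 275 CPM. Thus every region had fibroblasts with Igf1, and smooth muscle-like cells stood above the pooled fibroblast-like cells of their own library in all 6 libraries. In the large intestine, however, universal fibroblast-like cells (395 CPM) lay above them.

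Among the fibroblast subsets Igf1 averaged 274 ± 67.7 CPM (SD, n = 6) in trophocyte-like, 252 ± 89.3 CPM (n = 6) in universal fibroblast-like, 236 ± 65.0 CPM (n = 5) in telocyte-like and 222 ± 117 CPM (n = 6) in SEMF-like cells, ranges that overlap. In SEMF-like cells the cecum (400 CPM, the highest) and the large intestine (87.9 CPM, the lowest) lay farthest apart. Myeloid-like cells, few in number, held 28.2, 77.1, 73.0 and 95.6 CPM in the small intestinal libraries and 266 CPM in the large intestine. BEC-like cells held 18.3 to 36.3 CPM.

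Igf1 was close to the background of free RNA in LEC-like cells. Their levels ran from 5.45 to 12.0 CPM, against 133 to 293 CPM in the free RNA of the libraries. An Igf1 UMI was found in 4.51% ± 1.07 of LEC-like cells (n = 6), and in 3.98% ± 1.16 (n = 4) of T cell or ILC-like cells, lymphocytes that should lack it. The median depths were 4592 to 7548 and 4638 to 5700 UMIs per cell. Thinned to 2500 UMIs per cell, the shares were 1.71% and 1.63%. By contrast 71.9% ± 7.87 of trophocyte-like and 66.3% ± 8.48 of smooth muscle-like cells had one, or 41.5% and 49.4% after thinning.

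Igf2, the fetal growth ligand on chromosome 7 (142204503 to 142220694, minus strand), was all but absent. In 46 sums over 8 stromal and endothelial classes it gave 57 UMIs, 24 sums held none, and the highest level, 2.16 CPM, came from 1 UMI (95% exact Poisson interval 0.0548 to 12.0 CPM, counting error only). It passed the filter on low counts in no comparison. Gm49394 overlaps Igf2 on the same strand, and reads could be split between them.

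Igf1r, which encodes the receptor (chromosome 7, 67601518 to 67883416, plus strand), was measured in every class. Smooth muscle-like cells averaged 569 ± 108 CPM, trophocyte-like 472 ± 123 CPM, SEMF-like 332 ± 67.8 CPM and LEC-like 261 ± 83.3 CPM (SD, n = 6 each). Glia-like cells, present in 3 libraries, held 864, 713 and 673 CPM. B or plasma cell-like cells were lowest of the replicated classes, at 50.3 to 93.3 CPM, and did not overlap with their neighbor in this order, the myeloid-like cells (120 to 177 CPM). Other neighbors in the order of Igf1r overlapped. The cecum was the lowest library for Igf1r in trophocyte-like, telocyte-like, universal fibroblast-like, LEC-like and smooth muscle-like cells.

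**Figure D2:**
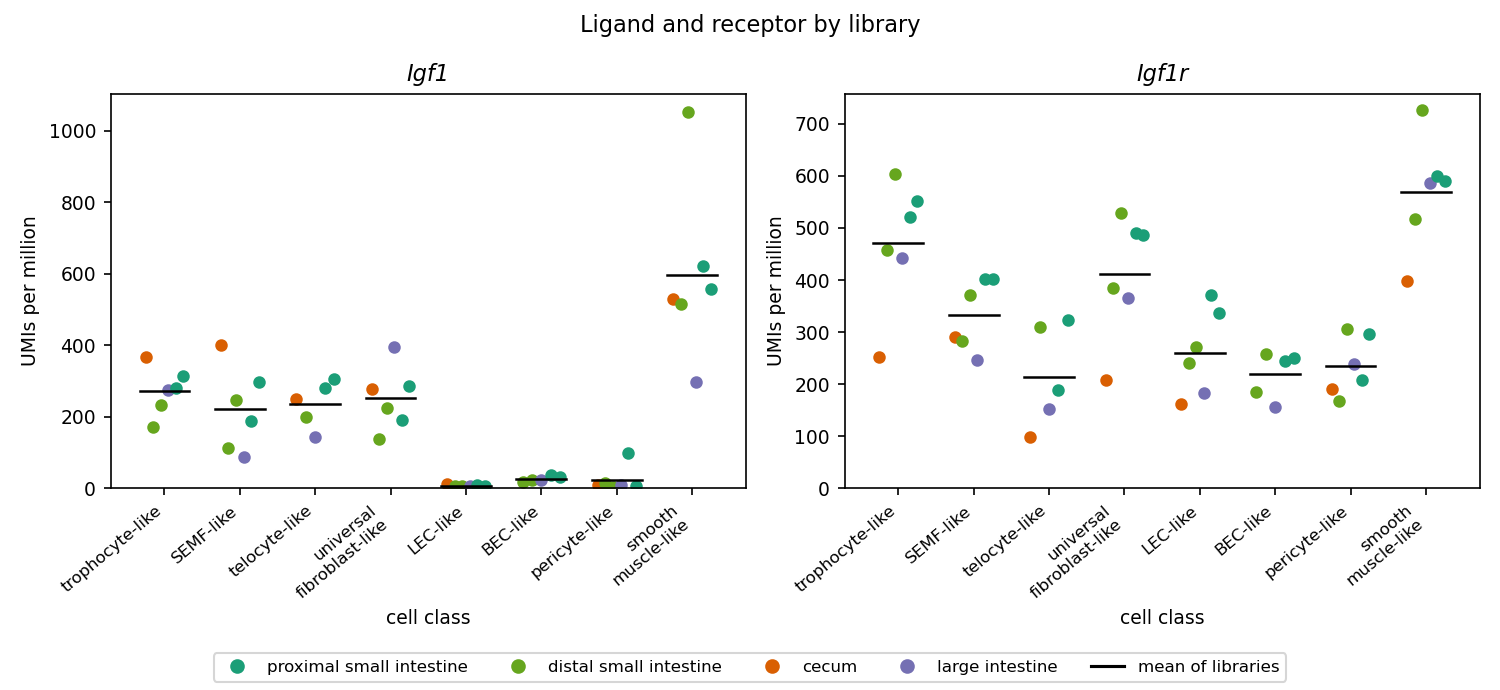
Levels of Igf1 and Igf1r in CPM (linear axes from 0) by cell class, 1 point per library colored by region, with the mean of the libraries as a line. Igf1 was near 0 in LEC-like cells and spread from 298 to 1052 CPM in smooth muscle-like cells, whereas Igf1r was above 90 CPM in each class shown.

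The binding proteins divided the classes. Summed over the 6 genes, their transcripts reached 4439 ± 847 CPM in SEMF-like, 4199 ± 262 CPM in BEC-like, 3713 ± 1058 CPM in trophocyte-like and 2077 ± 720 CPM in LEC-like cells. In BEC-like cells 79.3% of these UMIs were of Igfbp7. In SEMF-like cells Igfbp3 made up 40.7% ± 21.6 and Igfbp7 40.2% ± 10.1 (SD, n = 6), means over regions that differed, since Igfbp3 stood at 1901 to 3428 CPM in the small intestine and at 862 and 387 CPM in the large bowel. LEC-like cells held Igfbp5 (39.5% ± 16.8) and Igfbp4 (33.7% ± 16.4), with 8.59% for Igfbp7. Their order turned with the region, Igfbp4 being above Igfbp5 in all 4 small intestinal libraries and below it in the cecum and the large intestine. Igfbp6 took 18.9% in universal fibroblast-like cells.

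**Figure D3:**
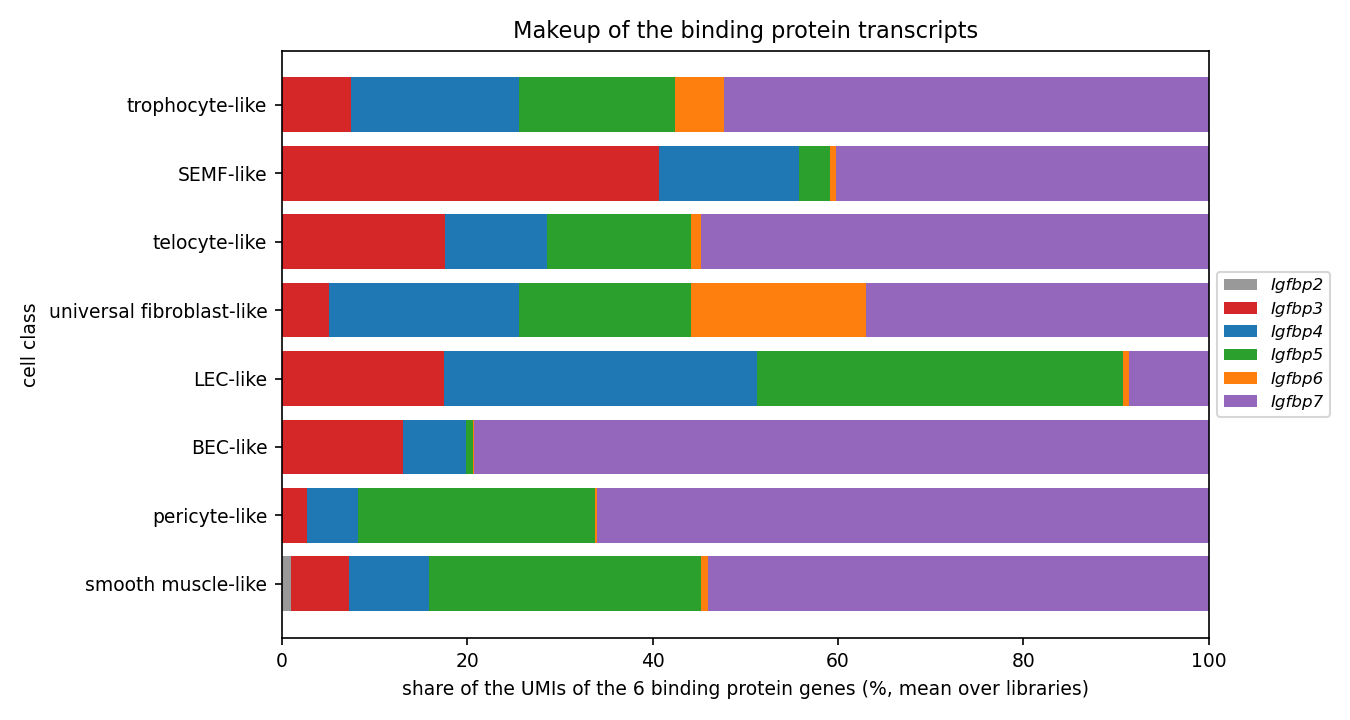
Share of each gene in the UMIs of the 6 binding protein genes, in percent, as the mean over the libraries of each class. Igfbp7 made up 79.3% in BEC-like cells and 8.59% in LEC-like cells; the 40.7% of Igfbp3 in SEMF-like cells is a mean over regions that differed (SD 21.6).

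To ask how the subepithelial fibroblasts differ from those around crypts, SEMF-like and trophocyte-like cells of the same library were compared. Differences between classes or regions are log2 fold changes with their standard errors, and adjusted p-values are from edgeR's quasi-likelihood test with Benjamini-Hochberg adjustment over all genes tested. Of 7 members tested, 1 was higher and 6 were lower in SEMF-like cells, where 47.0% of all genes tested were called in either direction, 23.5% higher and 23.6% lower. The members' median difference was -0.67, against 0.01 over all genes.

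Igfbp3, the main carrier of IGF in blood (chromosome 11, 7156086 to 7164179, minus strand), was the member that was higher. SEMF-like cells held 3428 and 2172 CPM in the proximal replicates, 2368 and 1901 CPM in the distal replicates, 862 CPM in the cecum and 387 CPM in the large intestine. Trophocyte-like cells held 138, 157, 147, 173, 542 and 662 CPM in the same order. The difference was 2.63 ± 0.83 (adjusted p = 0.0346), and SEMF-like cells were higher in 5 of 6 libraries, the large intestine being the exception. In the small intestinal libraries alone it was 3.74 (adjusted p = 2.5e-06), and in the large bowel libraries alone it was -0.20 (adjusted p = 0.777), a division chosen after the data had been seen. The call was also lost without any one of the small intestinal libraries (2.17 to 3.20 over all libraries left out in turn).

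Igfbp6, which prefers IGF-II (chromosome 15, 102052697 to 102057953, plus strand), was lower in SEMF-like cells by the widest margin. They held 4.10 to 7.85 CPM in the small intestine, 18.1 CPM in the cecum and 101 CPM in the large intestine, against 75.0 to 143 CPM, 496 CPM and 415 CPM in trophocyte-like cells. The difference was -4.16 ± 0.42 (adjusted p = 0.000273) and held its sign in all 6 libraries. In the small intestine 3.46% of SEMF-like cells had an Igfbp6 UMI, close to the 2.84% of T cell or ILC-like cells, so this level is at background.

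Igfbp5, a binding protein that also attaches to matrix (chromosome 1, 72897091 to 72914043, minus strand), was lower (-2.49 ± 0.33, adjusted p = 0.000851), at 151 ± 143 against 630.5 ± 282 CPM. It was lower in all 6 libraries. Igf1r (-0.67 ± 0.13, adjusted p = 0.0049) was lower in 5 of 6 libraries and Igfbp7 (-0.29 ± 0.07, adjusted p = 0.013) in all 6.

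Igfbp4, the binding protein that PAPP-A cleaves (chromosome 11, 98932064 to 98945218, plus strand), and Igf1 were called lower close to the threshold. For Igfbp4 the difference was -0.84 ± 0.29 (adjusted p = 0.0484), and it was -1.31 in the small intestinal libraries alone and 0.10 in the large bowel libraries alone. For Igf1 it was -0.63 ± 0.22 (adjusted p = 0.0499), with SEMF-like cells higher in 2 of 6 libraries. Under the 18 alternatives these calls held in 9 and 10.

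**Figure D4:**
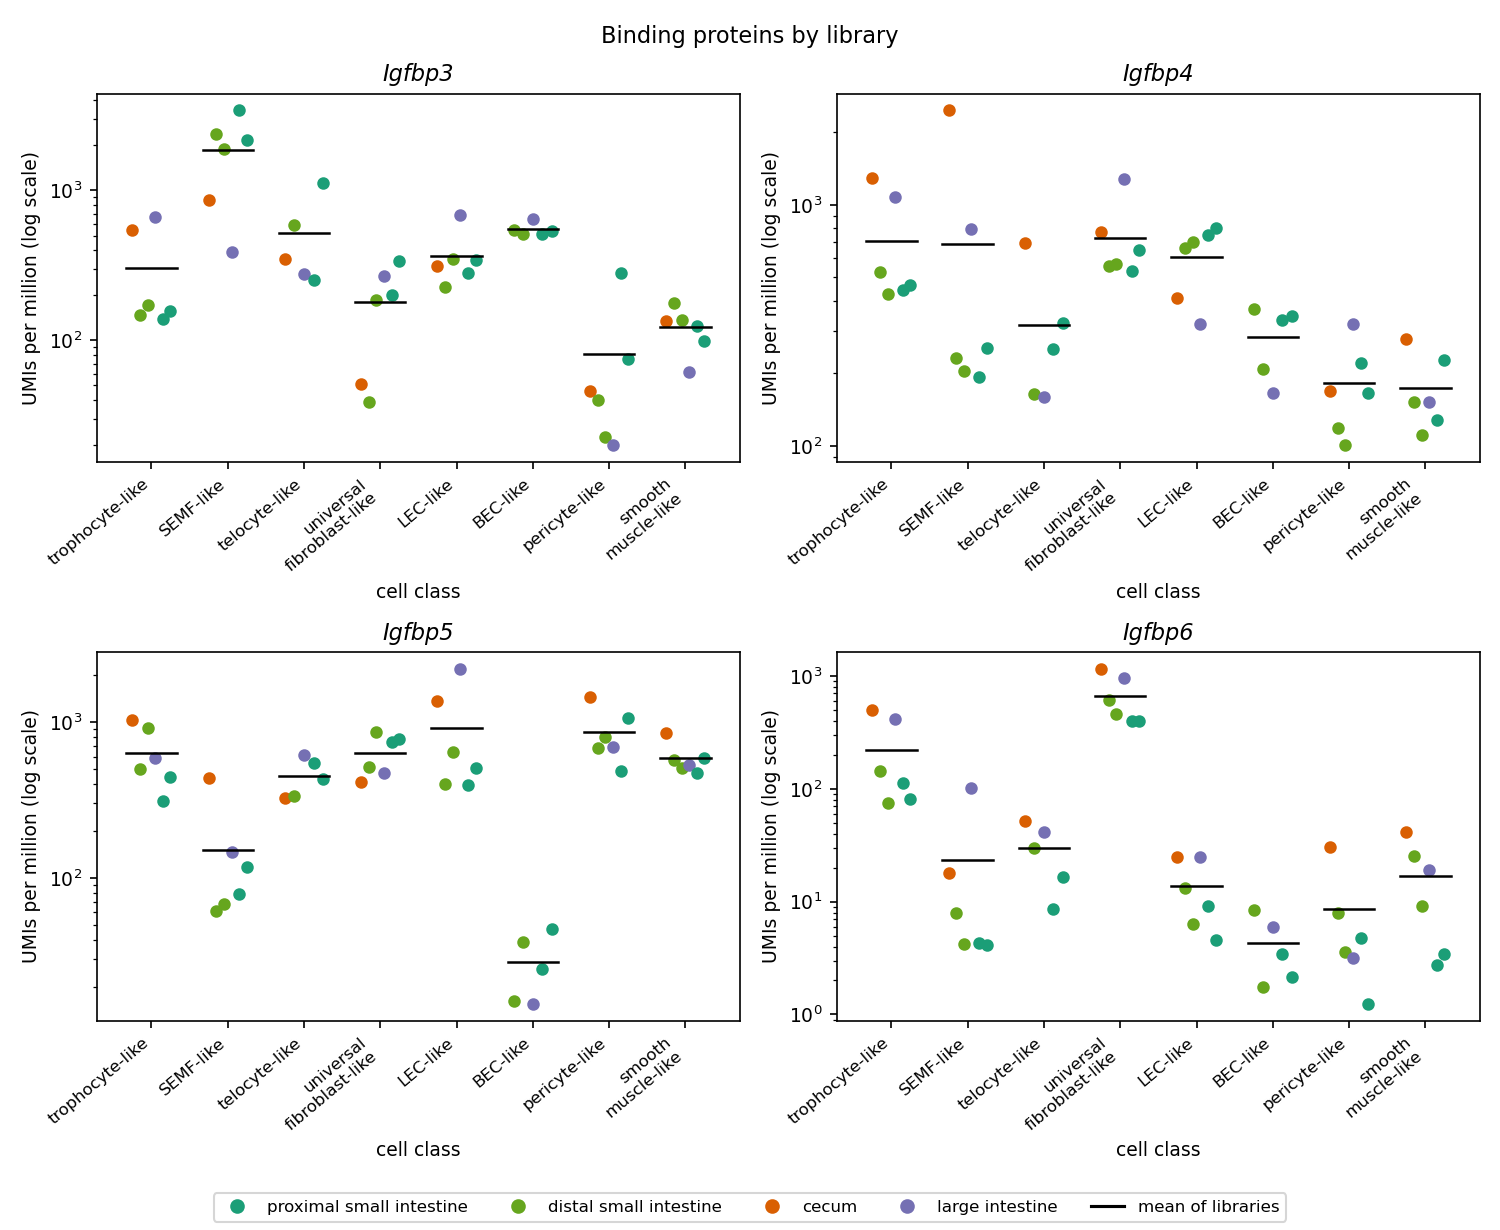
Levels of Igfbp3, Igfbp4, Igfbp5 and Igfbp6 in CPM (log axes) by cell class, 1 point per library colored by region, with the mean of the libraries as a line. In SEMF-like cells the 4 small intestinal libraries lay at 1901 to 3428 CPM for Igfbp3 and at 194 to 256 CPM for Igfbp4, while the cecum and the large intestine lay below them for Igfbp3 and above them for Igfbp4.

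Telocyte-like cells, a rarer subepithelial class, held Igfbp3 at 253, 1123, 586, 350 and 275 CPM in proximal replicates 1 and 2, distal replicate 2, the cecum and the large intestine. In each of these 5 libraries SEMF-like cells held more, but the difference of -1.61 ± 0.40 missed the threshold (adjusted p = 0.0597), as did that of Igfbp5 (1.74 ± 0.42, adjusted p = 0.0537; 450 ± 128 against 169 ± 152 CPM). Of 7 members tested 1 was called, where 5.25% of all genes were (2.54% higher, 2.70% lower). This was Igf1r, lower in telocyte-like cells in 5 of 5 libraries (-0.80 ± 0.19, adjusted p = 0.0487), a call that held in 7 of 17 alternatives. These sums came from 42 to 892 cells, 3 of them from 54 or fewer.

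Universal fibroblast-like cells were the class with most Igfbp6. Their levels were 401, 402, 615 and 457 CPM in the small intestinal libraries, 1149 CPM in the cecum and 957 CPM in the large intestine, above trophocyte-like cells in all 6 libraries (1.90 ± 0.18, adjusted p = 0.000215). Igfbp7 (-0.52 ± 0.06, adjusted p = 0.000567) and Igf1r (-0.18 ± 0.04, adjusted p = 0.0191) were lower in all 6 libraries. These were the 3 members called of 7, where 20.5% of all genes were called (11.5% higher, 9.02% lower). Without the library block none of the 3 passed.

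LEC-like cells were set against all fibroblast-like cells of the same library. Here 4 of 7 members were called, each lower, where 67.3% of all genes were called (31.5% higher, 35.7% lower). Igf1 differed by -5.11 ± 0.14 (adjusted p = 4.4e-08), Igfbp6 by -3.76 ± 0.13 (adjusted p = 9.9e-08), Igfbp7 by -3.47 ± 0.20 (adjusted p = 1.3e-06) and Igf1r by -0.72 ± 0.10 (adjusted p = 0.000222), with each sign seen in 6 of 6 libraries.

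For Igfbp4 the comparison turned with the region. In the small intestine LEC-like cells held 750.2, 802, 662 and 701 CPM, above the 422, 441, 517 and 396 CPM of fibroblast-like cells. In the cecum and the large intestine they held 413 and 320.5 CPM, below 1433 and 931 CPM. The difference was -0.02 over all libraries (adjusted p = 0.976), 0.76 in the small intestinal libraries alone (adjusted p = 0.00112) and -1.80 in the large bowel libraries alone (adjusted p = 5.4e-06), a division made after the data had been seen. The difference of these differences was not tested.

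The endothelial classes parted most at Igfbp7, a gene of vessel walls (chromosome 5, 77493130 to 77555931, minus strand, with Polr2b and Gm34648 opposite). BEC-like cells held 3006, 3349, 3325, 3249 and 3728 CPM in proximal replicates 1 and 2, distal replicates 1 and 2 and the large intestine, above every library of every other class. In these libraries LEC-like cells held 123, 100.5, 207, 120 and 168 CPM, and the difference was 4.70 ± 0.15 (adjusted p = 5.3e-08). Igf1 (2.15 ± 0.18, adjusted p = 1.4e-05; 26.7 against 6.68 CPM) and Igfbp3 (0.77 ± 0.17, adjusted p = 0.00414; 550.3 against 377 CPM) were also higher in BEC-like cells. With predicted doublets left in, the difference for Igf1 fell to 0.12 (adjusted p = 0.358).

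Igfbp5 went the other way, at 15.5 to 47.0 CPM in BEC-like and 397 to 2188 CPM in LEC-like cells (-4.34 ± 0.43, adjusted p = 3.9e-05). Igfbp4 (-1.07 ± 0.13, adjusted p = 0.000133) and Igfbp6 (-1.26 ± 0.25, adjusted p = 0.00234) were lower too. That made 6 of 7 members, where 57.6% of all genes were called (29.8% higher, 27.7% lower). An Igfbp6 UMI was found in 3.57% of BEC-like cells and 2.84% of T cell or ILC-like cells, or 1.18% and 1.16% after thinning. In LEC-like cells the share after thinning was 2.69%. The Igfbp6 level of BEC-like cells was thus at background, and the size of its difference is uncertain. Of the Igfbp5 UMIs of BEC-like cells in proximal replicate 2, 66 of 88 came from 1 cell.

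Igfbp3, Igfbp4 and Igfbp6 were lower than in fibroblast-like cells in both the pericyte-like and the smooth muscle-like cells. In pericyte-like cells 6 of 7 members were called against fibroblast-like cells, where 34.6% of all genes were (13.6% higher, 21.0% lower). Lower were Igf1 (-4.14 ± 0.48), Igf1r (-0.97 ± 0.18), Igfbp3 (-3.36 ± 0.42), Igfbp4 (-1.94 ± 0.25) and Igfbp6 (-5.08 ± 0.29), with adjusted p from 1.1e-07 to 0.00107. An Igfbp6 UMI was found in 3.43% of pericyte-like and 2.84% of T cell or ILC-like cells, or 1.77% and 1.16% after thinning. The size of the Igfbp6 difference is thus uncertain. For Igf1 proximal replicate 1 stood apart, at 100.2 CPM against 4.78 to 15.9 CPM in the other libraries. Igfbp5 was higher in all 6 libraries, at 861 ± 342 against 519.7 ± 185 CPM (0.57 ± 0.17, adjusted p = 0.023), a call that held in 12 of 18 alternatives. In distal replicate 1 only 5 of 22 pericyte-like cells had an Igfbp5 UMI, and 1 cell held 49 of the 86 UMIs. Igfbp7 stood at 1684 to 2970 CPM and was not called (0.15 ± 0.16, adjusted p = 0.513).

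In smooth muscle-like cells 6 of 7 members were called, leaving aside Igfbp2, where 37.9% of all genes were (15.6% higher, 22.3% lower). The rise of Igf1 over fibroblast-like cells was 1.07 ± 0.21 (adjusted p = 0.00197), but in the large bowel libraries alone it was not called (0.49, adjusted p = 0.115). Igf1r was higher by 0.35 ± 0.12 (adjusted p = 0.0378), in 6 of 6 libraries, and kept its call in 9 of 18 alternatives. Igfbp3 (-2.10 ± 0.25), Igfbp4 (-1.95 ± 0.19), Igfbp6 (-3.78 ± 0.24) and Igfbp7 (-0.81 ± 0.11) were lower, with adjusted p of 0.000165 or less.

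Igfbp2 (chromosome 1, 72863606 to 72891634, plus strand) encodes a binding protein with a motif for integrins. Smooth muscle-like cells held 0, 3.46, 0 and 1.09 CPM in the small intestinal libraries (0 UMIs allow up to 1.65 and 4.47 CPM), 50.6 CPM in the cecum and 70.1 CPM in the large intestine. The large intestinal value rests on 1 cell, which held 91 of the 95 UMIs. In the cecum 13 of 92 cells held the 39 UMIs, at most 8 in a cell. Without either large bowel library the gene failed the filter on low counts, so no test of it is given.

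The large bowel (2 libraries) was compared with the small intestine (4 libraries) within trophocyte-like, SEMF-like and LEC-like cells. The cecum and the large intestine gave 1 library each, so this comparison takes them as replicates of the large bowel. Igfbp2 is described by its counts alone, since it passed the filter on low counts only through the large bowel libraries. In trophocyte-like cells 3 of the 7 other members were called, all higher in the large bowel, where 19.3% of all genes were called (10.5% higher, 8.83% lower). In SEMF-like cells 3 of 7 were higher and 1 was lower, where 36.9% were called (20.2% higher, 16.7% lower). In LEC-like cells 2 of 7 were higher and 2 lower, where 21.4% were called (10.3% higher, 11.1% lower).

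In trophocyte-like cells Igfbp3, Igfbp4 and Igfbp6 were all higher. Igfbp3 stood at 138 to 173 CPM in the 4 small intestinal libraries and at 542 CPM in the cecum and 662 CPM in the large intestine (2.03 ± 0.13, adjusted p = 0.000548). Igfbp4 stood at 443, 467, 528 and 428 CPM against 1289 and 1081 CPM (1.41 ± 0.18, adjusted p = 0.00388). Igfbp6 stood at 112, 81.5, 143 and 75.0 CPM against 496 and 415 CPM (2.20 ± 0.28, adjusted p = 0.00433). All 3 calls held in each of the 16 alternatives.

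Igfbp2 gave few UMIs outside the large bowel in these cells, with 3 UMIs in the small intestinal libraries together against 110 in the large bowel. The levels were 4.70 CPM in the cecum and 1.32 CPM in the large intestine. Of the 83 UMIs in the cecum, 26 came from 1 of 24 cells, and of the 27 in the large intestine, 9 came from 1 of 8 cells. In fibroblast-like cells of no clear subset Igfbp2 was at 17.0 CPM in the cecum, where 215 cells held 611 UMIs, and at 0.90 CPM in the large intestine.

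In SEMF-like cells Igfbp4 was higher in the large bowel and Igfbp3 was lower. Igfbp4 stood at 194, 256, 232 and 205 CPM in the small intestine, 2466 CPM in the cecum and 791 CPM in the large intestine (3.05 ± 0.38, adjusted p = 0.00135). Igfbp3 stood at 1901 to 3428 CPM against 862 and 387 CPM (-1.81 ± 0.40, adjusted p = 0.0109). An Igfbp3 UMI was found in 94.6% ± 0.80 of small intestinal SEMF-like cells (n = 4) and in 66.2% of those of the large bowel (n = 2), or 85.7% and 48.2% after thinning, against 11.0% of T cell or ILC-like cells.

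Igfbp5 (2.01 ± 0.40, adjusted p = 0.00758) and Igfbp6 (3.81 ± 0.60, adjusted p = 0.0034) were higher in large bowel SEMF-like cells. For Igfbp5 the levels were 78.4, 117, 61.1 and 67.5 CPM against 435 CPM in the cecum and 145 CPM in the large intestine. The call was lost with free RNA taken off at an assumed share of 10% (adjusted p = 0.0739). Igfbp6 then failed the filter on low counts. At that share free RNA alone exceeds the Igfbp6 level of SEMF-like cells in the cecum and in each small intestinal library. The failure thus follows from the assumed share. The free RNA itself held 502 CPM of Igfbp6 in the cecum and 284 CPM in the large intestine, against 52.7 to 144 CPM in the small intestinal libraries. SEMF-like cells held Igfbp6 at 4.10 to 7.85 CPM in the small intestine, 18.1 CPM in the cecum and 101 CPM in the large intestine. The rise was thus largest in the large intestine. In the cecum the level of SEMF-like cells lay below that of the LEC-like cells of the same library. Whether this cecum level stands above background was not tested.

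The classes differed between the regions in their numbers and gate markers as well. SEMF-like cells numbered 359 to 810 in the small intestinal libraries, 1840 for cecum and 2710 for large intestine, and trophocyte-like cells 6712 to 14272, 2500 and 2133. LEC-like cells numbered 807 to 6212, 234 and 265, so their large bowel sums rest on few cells. In SEMF-like cells Nrg1 averaged 512 CPM in the small intestine and 1768 CPM in the large bowel, and Procr 51.5 and 252 CPM. Dkk2 in trophocyte-like cells averaged 732 and 20.6 CPM, and Ccl21a in LEC-like cells 2929 and 10816 CPM. Unassigned cells held Igfbp3 at 190 to 3302 CPM and Nrg1 at up to 3055 CPM. The part of the make-up of the classes in the regional differences was not tested.

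LEC-like cells had more Igfbp5 in the large bowel as well. They held 397, 508, 398 and 643 CPM in the small intestine, 1372 CPM in the cecum and 2188 CPM in the large intestine (1.84 ± 0.23, adjusted p = 0.000786), and the call held in all 16 alternatives. Igfbp4 was lower, at 367 against 729 CPM (-1.02 ± 0.17, adjusted p = 0.00338), with a UMI in 95.6% of small intestinal and 78.2% of large bowel cells, or 80.0% and 53.7% after thinning. With predicted doublets left in this was -0.46 (adjusted p = 0.118). Igf1r was lower, at 372, 337, 240.3 and 272 CPM against 161 and 183 CPM (-0.86 ± 0.20, adjusted p = 0.0147), a call lost without either large bowel library.

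Igfbp6 in LEC-like cells stood at 4.597 to 13.1 CPM in the small intestine, 24.7 CPM in the cecum and 25.05 CPM in the large intestine (1.67 ± 0.39, adjusted p = 0.0154). A UMI was found in 4.63% and 8.75% of the cells, or 1.83% and 4.40% after thinning. The cecum gave 33 UMIs, 12 of them in 1 cell. This call was lost without either large bowel library. With free RNA taken off at the assumed 10% the gene failed the filter on low counts. The free RNA itself held 52.7 to 144 CPM of Igfbp6 in the small intestinal libraries, 502 CPM in the cecum and 284 CPM in the large intestine. Whether the rise in LEC-like cells goes beyond that of the free RNA was not tested.

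**Figure D5:**
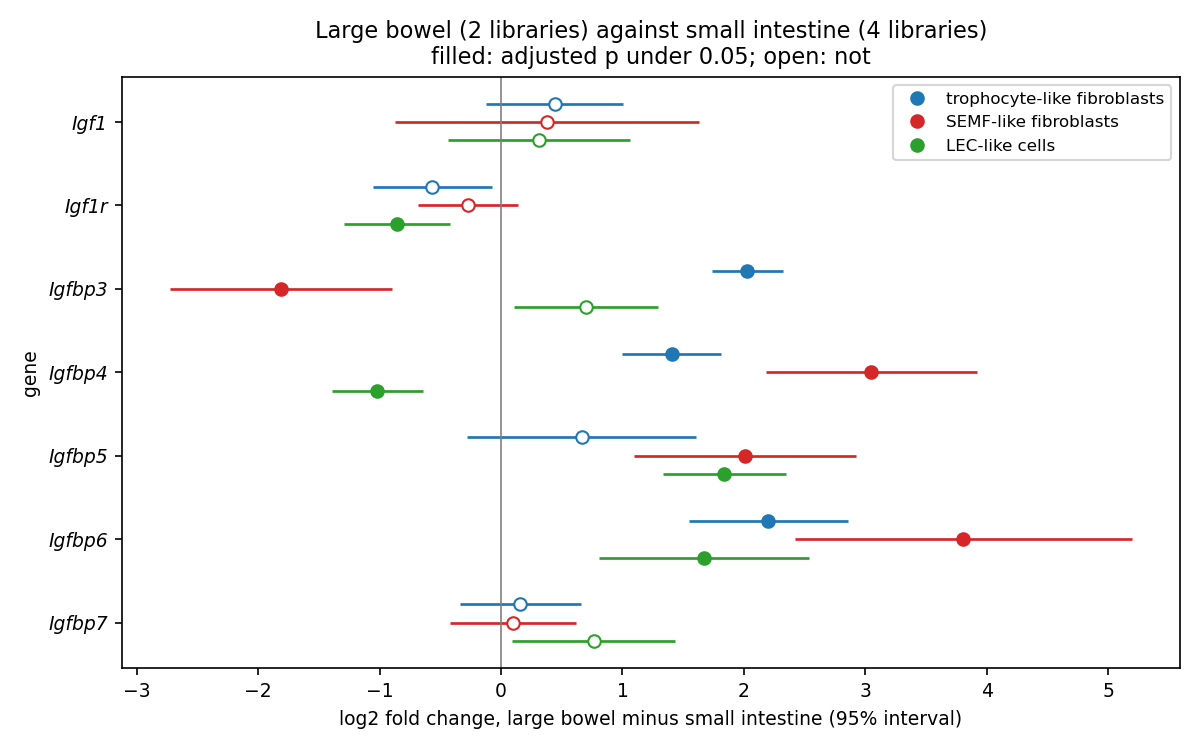
Log2 fold change of large bowel (2 libraries) against small intestine (4 libraries) for 7 members in 3 cell classes, with 95% intervals; filled points passed adjusted p under 0.05. Igfbp3 was 2.03 in trophocyte-like and -1.81 in SEMF-like cells, and Igfbp4 was 3.05 in SEMF-like and -1.02 in LEC-like cells.

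Whether the regional change itself differed between SEMF-like and trophocyte-like cells was tested by an interaction term with library as a block. Leaving aside Igfbp2, 2 of 7 members were called, where 8.77% of all genes were (5.09% higher, 3.68% lower). For Igfbp3 the regional change of SEMF-like cells lay below that of trophocyte-like cells (-3.93 ± 0.42, adjusted p = 0.00307), and this call held in all 16 alternatives. For Igfbp4 it lay 1.42 ± 0.31 above (adjusted p = 0.0351), a call that held in 9 of 16 and was lost without any one of the small intestinal libraries.

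Igf1 and Igfbp7 were called between the regions by edgeR in none of the 3 classes. Igfbp7 in LEC-like cells (0.76 ± 0.30, adjusted p = 0.0977) was called with DESeq2 (adjusted p = 0.0495), without the filter on low counts (0.0103) and without distal replicate 1 (0.0152), among 16 alternatives. Intervals for the large bowel against the small intestine ran from -0.12 to 1.00 for Igf1 in trophocyte-like cells, from -0.87 to 1.63 in SEMF-like cells and from -0.44 to 1.07 in LEC-like cells. For Igfbp7 they ran from -0.34 to 0.66, from -0.42 to 0.62 and from 0.09 to 1.44. Igf1r in trophocyte-like cells, at 521, 552, 458 and 604 CPM against 253 CPM in the cecum and 443 CPM in the large intestine, missed the threshold (-0.57 ± 0.21, adjusted p = 0.0944).

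The regional comparison was repeated within the 4 libraries that shared hashtags 1 to 3, an alternative added after the data had been seen. Within this set the trophocyte-like calls and the LEC-like calls held (adjusted p of 0.0418 or less), as did those of Igfbp3, Igfbp4 and Igfbp5 in SEMF-like cells. Igfbp6 in SEMF-like cells was then 3.50 (adjusted p = 0.0549), and the interaction for Igfbp4 was 1.56 (adjusted p = 0.139).

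Distal and proximal small intestine, with 2 libraries each, were compared in the same 3 classes. No member was called by edgeR in any of them, where 0.0163% of all genes tested were called in trophocyte-like cells (0.00544% higher, 0.0109% lower) and 0% in SEMF-like and LEC-like cells. At an unadjusted p under 0.05 there were 1014, 438 and 600 genes, limma-voom called 1, 0 and 0, and DESeq2 called 246, 30 and 31. Within trophocyte-like cells Igf1 stood at 279.7 and 315 CPM in proximal and 171 and 232 CPM in distal libraries (-0.55 ± 0.17, adjusted p = 0.652), and Igfbp5 at 313 and 441 against 498 and 915 CPM (0.91 ± 0.30, adjusted p = 0.717). With the replicate number as a block, Igf1 (-0.56, adjusted p = 0.0404), Igfbp5 (0.87, adjusted p = 0.000959) and, in LEC-like cells, Igfbp7 (0.48, adjusted p = 0.0435) were called.

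Around the members, 41 other genes of the IGF and insulin pathway were listed. Between SEMF-like and trophocyte-like cells 31 were tested, 7 were higher and 14 lower, where 23.5% and 23.6% of all genes were, and the median difference was -0.23. Lower in SEMF-like cells were Stc2, an inhibitor of PAPP-A (69.3 against 250.0 CPM, -2.76 ± 0.72, adjusted p = 0.0161), the insulin receptor gene Insr (-0.80) and the adaptor gene Irs1 (-0.88). Ghr, the growth hormone receptor gene, was higher (1450 against 884 CPM, 0.53 ± 0.09, adjusted p = 0.00232). Universal fibroblast-like cells had 5 of 32 higher and 7 lower (all genes 11.5% and 9.02%), with Glp2r, the receptor of GLP-2, at 122 against 62.2 CPM (0.96 ± 0.09) and Pappa, the gene of PAPP-A, lower (-1.12). Glp2r in universal fibroblast-like cells stood at 55.4 to 96.5 CPM in the small intestine, 237 CPM in the cecum and 186 CPM in the large intestine. In telocyte-like cells it stood at 107 to 132 CPM, 137 CPM and 90.4 CPM. Telocyte-like cells had 2 of 30 higher and 4 lower than SEMF-like cells (all genes 2.54% and 2.70%), among them Ghr (-0.48).

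LEC-like cells had 8 of 34 genes of this list higher and 19 lower than fibroblast-like cells, where 31.5% and 35.7% of all genes were (median -0.92, against -0.052 over all genes). Irs1 (-4.92) and Irs2 (-4.73), adaptors that carry the signal from the insulin and IGF receptors, and Ghr (-2.58) were lower, while Stc1, a relative of Stc2, was higher (96.3 against 2.07 CPM, 5.79 ± 0.45). BEC-like cells had 11 of 29 higher and 9 lower than LEC-like cells (all genes 29.8% and 27.7%), with Insr at 260 against 68.8 CPM (2.01 ± 0.13) and Socs2, a target and brake of growth hormone signaling, at 324 against 96.4 CPM (1.86 ± 0.10). Pericyte-like cells had 7 of 33 higher and 18 lower (all genes 13.6% and 21.0%), and smooth muscle-like cells 5 of 33 higher and 18 lower (all genes 15.6% and 22.3%; medians -0.59 and -0.42, against -0.17 and -0.12 over all genes). In both Pappa was lower (-3.61 and -2.51).

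Between the regions, 5 of 33 genes of the list were higher and 5 lower in large bowel trophocyte-like cells, 8 of 31 higher and 12 lower in SEMF-like cells and 3 of 32 higher and 8 lower in LEC-like cells. Over all genes the shares called higher and lower were 10.5% and 8.83%, 20.2% and 16.7%, and 10.3% and 11.1%. The medians of the list were -0.32, -0.36 and -0.12, and those of the 7 members tested in SEMF-like and LEC-like cells 0.38 and 0.70, against -0.024, 0.017 and -0.018 over all genes. Insr was lower in all 3 classes (-0.98, -1.08 and -0.97), as was the transcription factor gene Foxo3 (-1.13, -1.23 and -1.09). Htra1, a secreted protease gene, was higher in all 3 (1.55, 2.32 and 2.16). Glp2r was higher in trophocyte-like (1.31 ± 0.19) and SEMF-like cells (2.48 ± 0.38). Stc2 fell to 4.22 from 102 CPM in SEMF-like cells (-4.45 ± 0.30, adjusted p = 0.000119), and Pappa fell in LEC-like cells (-1.68 ± 0.23). In the interaction test 1 of 33 was called higher and 5 lower (all genes 5.09% and 3.68%), and none of 33, 30 and 33 was called between distal and proximal small intestine.

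The genes whose levels followed each member most closely were found by Pearson correlation of log2(CPM + 5) over 64 sums of 14 classes with at least 50 cells, among 11627 candidates. The sums share libraries and differ in depth, so the values are a description. For Igf1 the closest were Clmp (0.91), Arhgap28 (0.90) and Pcdh7 (0.90), and for Igf1r they were Tnrc18 (0.83), Fbxo3 (0.82) and Tnrc6a (0.82). Igfbp3 followed Gja1 (0.83), Fbln5 (0.79) and Lifr (0.79), and Igfbp4 followed Fkbp9 (0.88), Fcgrt (0.87) and Armcx4 (0.86). Igfbp5 lay closest to Prelp (0.89), Ecm2 (0.88) and Lrch2 (0.86), Igfbp6 to Gfpt2 (0.93), Has1 (0.93) and Medag (0.92), and Igfbp7 to Mxra7 (0.93), Dlc1 (0.93) and Col4a2 (0.91). For the sparse Igfbp2 the highest values were 0.69 (Actc1), 0.63 (Fat3) and 0.63 (Svopl).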

How the data were processed

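Single-cell 3′ libraries of sorted tdTomato+ cells were analysed from the raw counts. Reads had been aligned by the authors to mm39 plus tdTomato (Cell Ranger, version 8.1.0 per the labels and 8.0.1 per the file headers) and the deposited values are UMI counts for every barcode, before their own removal of doublets and free RNA. The limits of the methods were applied to cells (1000 to 7500 genes, 2500 to 40000 UMIs, under 10% mitochondrial). The authors also removed clusters with very few tdTomato+ cells as contaminants, a step that was not applied here. Scrublet removed 4.91% to 11.4% as doublets (0.8% expected per 1000 cells). A profile of free RNA came from barcodes of at most 100 UMIs, 2.90% to 3.82% of the UMIs.

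A marker counted as on above the 0.99 Poisson quantile of 10% free RNA. A class needed at least 3 markers on, a fibroblast subset at least 2, and the highest share of its list. Sums per library and class were tested by edgeR's quasi-likelihood test (filterByExpr with a minimum of 10, TMM, Benjamini-Hochberg threshold 0.05), with library as a block between classes and no block between regions. The standard error is the log2 change divided by the square root of F. The methods compared tissues with limma-voom, an alternative here. Folds are TMM-scaled and CPM levels are not.

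Named were all members, the genes of the 41-gene list past the threshold as examples, and the 3 closest genes per member with a mean of at least 20 CPM in a class. The members, marker lists and gene list were chosen with earlier results of these data known. The gate's thresholds were set after the markers, but not the members, had been seen. Tests were checked on simulated data, where more of the calls were false than the threshold allows, so calls close to it are less certain than stated. Alternatives were limma-voom, DESeq2, RLE scaling, no filter, each library left out, free RNA subtracted, doublets kept, a higher minimum of UMIs, stricter and looser gates, and blocks added or removed. Free RNA was subtracted at a fixed, assumed share of 10%. Fits within single regions and within the first hashtag set were chosen later, with the data seen. Coordinates are of GRCm39 (GENCODE vM39). Hashtags were not used to split cells. The tests ran in R 4.3.3 with edgeR 4.0.16, DESeq2 1.42.0 and limma 3.58.1. Python 3.11.15 was used with scanpy 1.11.5, scipy 1.17.1, numpy 2.4.6 and pandas 2.3.3.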

Additional observations from a re-analysis of the deposited data

Results flagged for a closer look

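In 2 of 47 groups of 4 small intestinal libraries, 1 library lay far from the others, and chance alone sets apart about 1 in 20 such groups. Igf1 in the pericyte-like cells of proximal replicate 1 was 100.2 CPM (63 UMIs in 94 cells), against 4.78 to 15.9 CPM in the other small intestinal libraries. Igfbp6 in the SEMF-like cells of distal replicate 1 was 7.85 CPM (23 UMIs in 359 cells, 6 of them in 1 cell), against 4.10 to 4.29 CPM.

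The regional change differed between SEMF-like and trophocyte-like fibroblasts for Igfbp3 (-3.93 on the log2 scale, adjusted p = 0.00307) and for Igfbp4 (1.42, adjusted p = 0.0351), by the edgeR interaction term.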

How the results depend on the processing

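Of 230 counts of members called, 200 stayed within 1.5 times the count reported, a tally that takes no account of the share of all genes called. Of the fold changes of members called under some setting, 1039 kept direction and side of the threshold, 78 lost and 53 gained the call, and 14 changed sign. Of the levels, 747 moved by less than 1 SD and 27 by more. Leaving out 1 library cannot move the mean of a class by 1 SD, so those settings could only count as unmoved and are no sign of stability. The cause of each change was not tested.

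SEMF-like against trophocyte-like cells gave 7 members called, 4 without the library block (4201 of 15313 genes called, in place of 7200), 1 in the large bowel libraries alone (1314 of 15601 genes) and 4 to 7 with a library left out. Telocyte-like against SEMF-like cells gave 1 (695 of 13243 genes called), which became 3 with DESeq2 (1039 of 13243), without the filter (922 of 24568), with the looser gate (2040 of 12984) and in the small intestine alone (946 of 11999), 2 with doublets kept (705 of 13550), 0 with RLE (678 of 13243), with free RNA subtracted (502 of 12882) and without the block (46 of 13243), and 0 to 2 with a library left out. Universal fibroblast-like cells gave 3, then 0 without the block (436 of 15083 genes called, in place of 3095) and 1 in the large bowel alone (168 of 15096 genes). LEC-like against fibroblast-like cells gave 4, and 7 in the large bowel alone, where 5590 of 17311 genes were called. One of these was Igfbp2, which had no UMI in LEC-like cells there and passed the filter only through the fibroblast-like cells, so 6 of the 7 other members compare with the 4. The regional comparison gave 4 in SEMF-like cells, 2 with free RNA subtracted (4802 of 14128 genes called, in place of 5402 of 14630), and in LEC-like cells 4, or 2 to 5 with a library left out (2 without the large intestine). The interaction gave 2, then 1 with free RNA subtracted (997 of 16549 genes called) or in the first hashtag set (439 of 16644 genes), and its count moved with a library left out. Counts of members with a library left out are given without the shares of all genes called in those fits. Whether they moved with those shares is therefore not shown.

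Signs changed as follows on the log2 scale. In the large bowel alone, SEMF-like against trophocyte-like cells gave -0.20 for Igfbp3 and 0.10 for Igfbp4, telocyte-like cells gave -0.24 for Igfbp6 (-0.41 with limma-voom), and universal fibroblast-like cells gave -0.18 for Igfbp4. In the small intestine alone, Igfbp4 was 0.16 in telocyte-like cells, Igfbp3 was 0.067 in universal fibroblast-like cells, and Igfbp4 was 0.76 in LEC-like cells (-0.27 to 0.34 with a library left out, positive without the cecum and, at 0.30, without the large intestine). Igfbp5 in smooth muscle-like cells was -0.50 with the strict gate (adjusted p = 0.0391). In the interaction, leaving out a library gave -1.20 to 0.43 for Igf1 and -0.42 to 2.46 for Igfbp6, with the sign changed without the large intestine, and -0.13 to 0.79 for Igf1r, changed without the cecum.

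With the replicate number as a block, distal against proximal small intestine gave 2 members in trophocyte-like and 1 in LEC-like cells in place of 0, and 808, 193 and 270 genes in trophocyte-like, SEMF-like and LEC-like cells in place of 3, 0 and 0. The deviations of same-numbered libraries correlated at 0.54, 0.30 and 0.40 over 2 pairs. The labels do not say that a number marks shared mice or a day, though the hashtag sets follow it. Not run were telocyte-like against SEMF-like cells with the strict gate and BEC-like against LEC-like cells in the large bowel alone, where too few libraries remained. Cecum and large intestine, with 1 library each, were not compared by a test, and cells were not split by hashtag.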

Other observations

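Igfbp1, the liver-type binding protein gene, held no UMI in trophocyte-like, SEMF-like or BEC-like cells of any library, which allows up to 0.026 to 2.22 CPM depending on the library. Glia-like cells, counted in 3 libraries, took 87.1% of their binding protein UMIs from Igfbp7, at 1159, 1199 and 1434 CPM. The 51 epithelial-like cells of the large intestine held Igf1 at 3.89 CPM and Igf1r at 87.8 CPM, in 1 library with no replicate.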
